A study of Mus musculus with 12 samples.

Results

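A pair of libraries from 1 reprogramming course were compared, MidK2 at day 22 and MidK2 at day 29, to see which X-linked genes gained and which lost reads of the reference allele over that week. Both libraries come from mouse embryonic fibroblasts (MEF) carrying the reprogramming vector SeVdp(fKOSMaB), a Sendai virus vector, and both had 30 nM Shield1, a compound that protects proteins carrying a destabilising domain from degradation. The vector and the agent were therefore the same on both days, and each day is a single library, with no replicate. The same course also has libraries at days 18 and 36, and MEF2 is the fibroblast library of day 0 whose table has the same limits, without vector or Shield1. The series has 12 libraries in all. Not given in the sources used here are genotype, strain, which parent each X chromosome came from, the age and number of animals, and any use of feeder cells.

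The genes were chosen by 1 rule: single-base variants on the X chromosome listed at both days, each covered by at least 20 reads on each day, were summed per gene. The rule gave 2315 sites in 280 genes, of 398 genes that had such a site in any table of the series. A site's reference share is the percentage of covering reads that did not carry the variant allele, and a gene's share sums reads over its sites. Over the 2315 sites the reference share was 17.4% of 191116 reads at day 22 and 18.0% of 175060 reads at day 29, with a median of 48 and 41 reads per site. A total of 1359 sites lay in untranslated regions, 865 in coding sequence, 36 in exons of noncoding transcripts, 39 in introns and 16 outside an annotated gene of that name. The tables cover the X chromosome alone, and a shared site needs a listed variant as well as expression, so the cells' identity could not be checked. Of the lists, 19 of 26 fibroblast-expressed genes and 2 of 17 pluripotency and germline genes (Tfe3 and Rhox5) had a shared site. Tfe3 was also read in the fibroblasts, with 22 of its 24 sites listed in MEF2.

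As background, cells of female mammals silence 1 of their X chromosomes, and the long noncoding RNA Xist coats the silent copy and recruits repressive chromatin complexes. Reprogramming to pluripotency reverses this, so that transcripts of the silent copy reappear, some genes before others. A few escape genes, such as Ddx3x and Kdm6a, are read from both copies throughout. A single-base difference between the parental chromosomes lets reads be counted by allele. In bulk RNA a share lies between those of the cells mixed in it, so a changed number of cells reading both alleles and a changed amount of RNA of 1 allele per cell cannot be told apart.

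The reference windows below, 6 of 31 bases each, show where the alleles were told apart around the best-covered coding site of a gene with one of the largest changes that had a coding site. They are read 5′ to 3′ along the transcript, from GENCODE M21 transcripts on build mm10. The capital is the reference base at the site, and the substitution beside each name counts positions from 1 at the 5′ end, reference base first.
Plp2, T16C, minus strand, site at chrX:7668934-7668934 (the window crosses an exon junction): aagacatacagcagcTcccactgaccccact
Bcorl1, G16A, plus strand, chrX:48405941-48405971: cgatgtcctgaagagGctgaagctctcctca
Fundc1, A16T, minus strand, chrX:17558717-17558747: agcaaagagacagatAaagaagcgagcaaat
Bcor, G16C, minus strand, chrX:12038983-12039013: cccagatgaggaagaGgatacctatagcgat
Mpp1, C16G, minus strand, chrX:75113602-75113632: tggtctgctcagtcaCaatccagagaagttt
Timp1, G16A, plus strand, chrX:20874528-20874558: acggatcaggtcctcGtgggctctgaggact

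At these sites the reference base was read by 34 of 128 reads in Plp2 at day 22 (26.6%) and by 60 of 136 at day 29 (44.1%). In Fundc1 it went from 5 of 48 reads (10.4%) to 17 of 41 (41.5%), and in Bcor from 18 of 175 (10.3%) to 22 of 101 (21.8%). The Bcorl1 site did not follow its gene, with 7 of 42 reads (16.7%) and then 3 of 22 (13.6%). The reference base was read less at day 29 in Mpp1, by 13 of 45 reads (28.9%) and then 2 of 32 (6.25%). In Timp1 it was read by 54 of 143 reads (37.8%) and then 30 of 152 (19.7%). A further listed site lies inside the Bcorl1 window and another inside the Mpp1 window, so single reads there can count at more than 1 site.

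Most genes differed little between the days. The difference in reference share, day 29 minus day 22 in percentage points, had a median of -0.07 over the 280 genes and quartiles of -2.68 and 2.37. It was above 0 in 122 genes, below 0 in 143 and 0 in 15, and 210 genes (75%) lay within 5 points. The full range ran from -25.3 to 22.6 points. Genes were compared by a two-sided Fisher's exact test on summed reads with Benjamini-Hochberg adjustment over all 280, which compares the reads of these libraries and not the days. Reads carry no molecular identifiers and 1 read can span several sites, so p-values and intervals cover counting error only.

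With the adjusted p under 0.05 and at least 20 points between the days, 1 gene was higher at day 29 (0.357% of the genes tested), Plp2, and 1 was lower (0.357%), Zfp275. Plp2 lay only just past 20 points, and its difference was 19.6 points at a coverage minimum of 10 reads, 17.9 with sites at least 150 bases apart and 12.5 at a minimum of 50 reads. At a limit of 10 points, 10 genes were higher (3.57%) and 3 lower (1.07%). At any size, 22 genes were higher (7.86%) and 15 lower (5.36%). Losses and gains of reference share thus stood side by side within the week, with most of the larger ones being gains. When only the best-covered site of each gene was used, which leaves far fewer reads, 0 of these 13 genes were called, and 12 of the 13 kept their direction (all but Bcorl1).

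**Figure D1:**
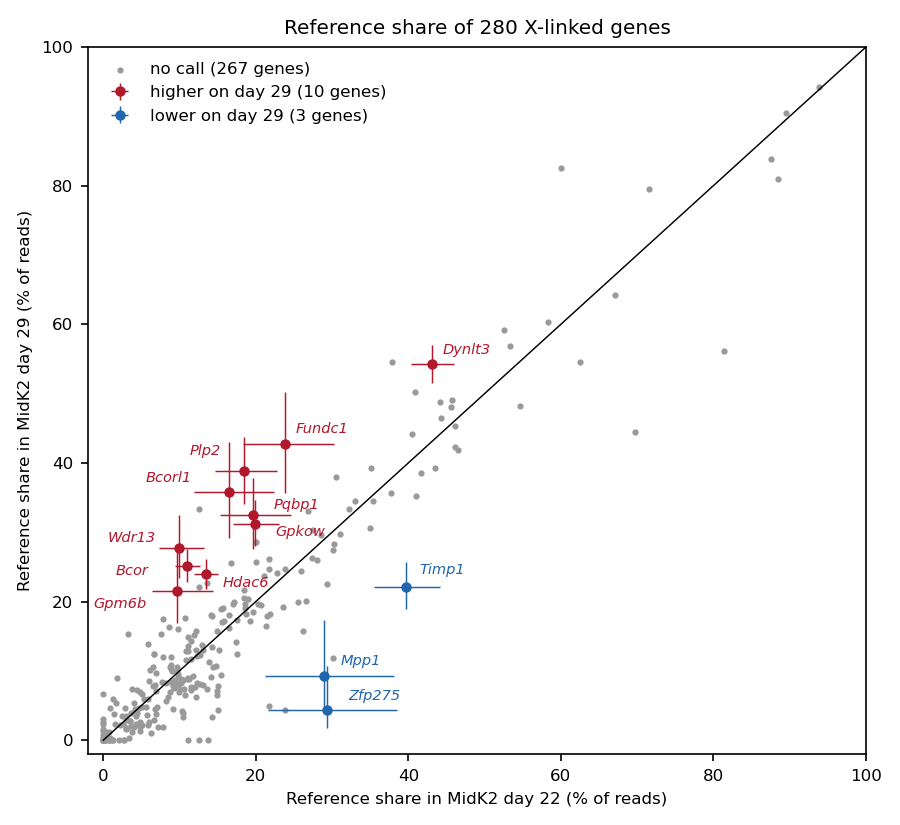
Reference share of each of the 280 genes at day 22 (x axis, % of reads) and at day 29 (y axis, % of reads); the line marks equal shares, and bars are 95% Wilson intervals. The 10 genes called higher by at least 10 points lie above the line, Dynlt3 from 43.1% to 54.2%, and the 3 called lower lie below it, Zfp275 from 29.4% to 4.35%.

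The 10 genes that rose are described first, beginning with Bcor, Bcorl1 and Hdac6. Bcor (X:12036740-12160355, minus strand) encodes a corepressor that works with BCL6 and in a variant Polycomb complex. It had 154 reference reads of 1407 at day 22, or 10.9% (95% Wilson interval 9.42 to 12.7), and 326 of 1299 at day 29, or 25.1% (22.8 to 27.5). The intervals lay apart, 19 of its 21 sites were higher at day 29, and the rise of 14.2 points (interval 11.3 to 17.0) had the smallest p of all genes, at an adjusted p of 1.1e-19. In 1 coding stretch the site at 12056815 went from 0 of 35 to 7 of 29 reference reads and the site at 12056832 from 0 of 32 to 11 of 35.

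Bcorl1 (X:48341358-48408049, plus strand), a corepressor related to Bcor, was read less deeply. It had 32 of 194 reference reads at day 22, or 16.5% (11.9 to 22.4), and 64 of 179 at day 29, or 35.8% (29.1 to 43.0). The rise was 19.3 points (interval 10.4 to 27.8, adjusted p = 4.76e-04, Fisher's exact test), with 6 of 7 sites higher and the site shown above lower. Hdac6 (X:7930120-7947889, minus strand), a mainly cytoplasmic deacetylase of tubulin, had 252 of 1879 reference reads, or 13.4% (11.9 to 15), and then 367 of 1534, or 23.9% (21.9 to 26.1). Of its 23 sites 22 were higher at day 29, and the 10.5-point rise (interval 7.89 to 13.2) had an adjusted p of 3.90e-13, although its size lay just inside the limit.

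Plp2 (X:7667941-7671390, minus strand), a small proteolipid of membranes, had 64 of 348 reference reads at day 22, or 18.4% (14.7 to 22.8), and 154 of 397 at day 29, or 38.8% (34.1 to 43.7). The 20.4-point rise (interval 14 to 26.5, adjusted p = 4.97e-08, Fisher's exact test) was carried unevenly along the gene. The untranslated site at 7671247 went from 5 of 21 to 35 of 54 reference reads and its neighbour at 7671256 from 4 of 35 to 35 of 67. Without the first of these the gene's rise was 16.7 points (adjusted p = 3.52e-05 by Fisher's exact test). The intronic site at 7668578 had 0 reference reads on both days, and the coding site at 7669649 stayed at 16.2% and 16.1%. Reads of Plp2 thus moved at 4 of its 6 sites, and those that moved most were at its 5′ end.

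Fundc1 (X:17556564-17572325, minus strand) encodes a receptor for mitophagy in the outer mitochondrial membrane. Its reference reads were 46 of 193, or 23.8% (18.4 to 30.3), and then 74 of 173, or 42.8% (35.6 to 50.2). The difference was 18.9 points (interval 9.30 to 28.2, adjusted p = 0.002, Fisher's exact test), with 4 of 5 sites higher and 1 at 33.3% on both days. Dynlt3 (X:9654267-9663003, minus strand), a light chain of the cytoplasmic dynein motor, had the highest level of the 13 genes on both days. It had 501 of 1162 reference reads, or 43.1% (40.3 to 46.0), and then 693 of 1278, or 54.2% (51.5 to 56.9). Its share was 11.1 points higher (interval 7.15 to 15, adjusted p = 1.52e-06, Fisher's exact test). Among its 19 sites the change ran from -18.5 to 22.7 points, and at 9655269 the share was 83.3% at day 22 and 64.8% at day 29, against the gene's direction.

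Gpm6b (X:166238911-166388988, plus strand), a membrane glycoprotein of neurons and glia, lay at the far end of the chromosome. It had 21 of 217 reference reads, or 9.68% (6.42 to 14.3), and then 53 of 246, or 21.5% (16.9 to 27.1). All of its 4 sites were higher, and the 11.9-point rise (interval 5.26 to 18.3) had an adjusted p of 0.00571 by Fisher's exact test. At a coverage minimum of 50 reads it was 10.1 points, with an adjusted p of 0.0797 by Fisher's exact test. Gpm6b is also a gene of the list of blood, neural and placental genes, of which 2 of 20 had a shared site. The other, Esx1, a placental homeobox gene, differed by 1.38 points and was not called.

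Wdr13 (X:8123301-8132892, minus strand), a protein of WD repeats, had 40 of 405 reference reads, or 9.88% (7.34 to 13.2), and then 102 of 368, or 27.7% (23.4 to 32.5). Every 1 of its 13 sites, all untranslated, was higher at day 29, by 2.75 to 32.1 points, and the gene's rise was 17.8 points (interval 12.4 to 23.3, adjusted p = 9.59e-09, Fisher's exact test). Its sites crowd together. With sites at least 150 bases apart, 4 were left, the rise was 12.8 points and its adjusted p was 0.0829 by Fisher's exact test.

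Gpkow (X:7697131-7710262, plus strand), a spliceosome-associated protein, had 135 of 680 reference reads, or 19.9% (17.0 to 23), and then 237 of 759, or 31.2% (28.0 to 34.6). The rise over its 21 sites was 11.4 points (interval 6.88 to 15.8, adjusted p = 2.46e-05, Fisher's exact test). It dropped to 5.35 points over the 8 sites at least 150 bases apart, with an adjusted p of 0.556 by Fisher's exact test. Pqbp1 (X:7894519-7899269, minus strand), a polyglutamine-binding protein of pre-mRNA splicing, had 55 of 281 reference reads, or 19.6% (15.4 to 24.6), and then 101 of 311, or 32.5% (27.5 to 37.9). Its 12.9-point rise (interval 5.83 to 19.7) had an adjusted p of 0.00412 by Fisher's exact test. The 3 sites of Pqbp1 differed in level: 1 untranslated site was at 81.4% and 90.3%, and the coding ones went from 7.84% to 21.5% and from 9.41% to 13.3%. Without that untranslated site the gene's rise was 9.67 points, below the limit, with an adjusted p of 0.0163.

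**Figure D2:**
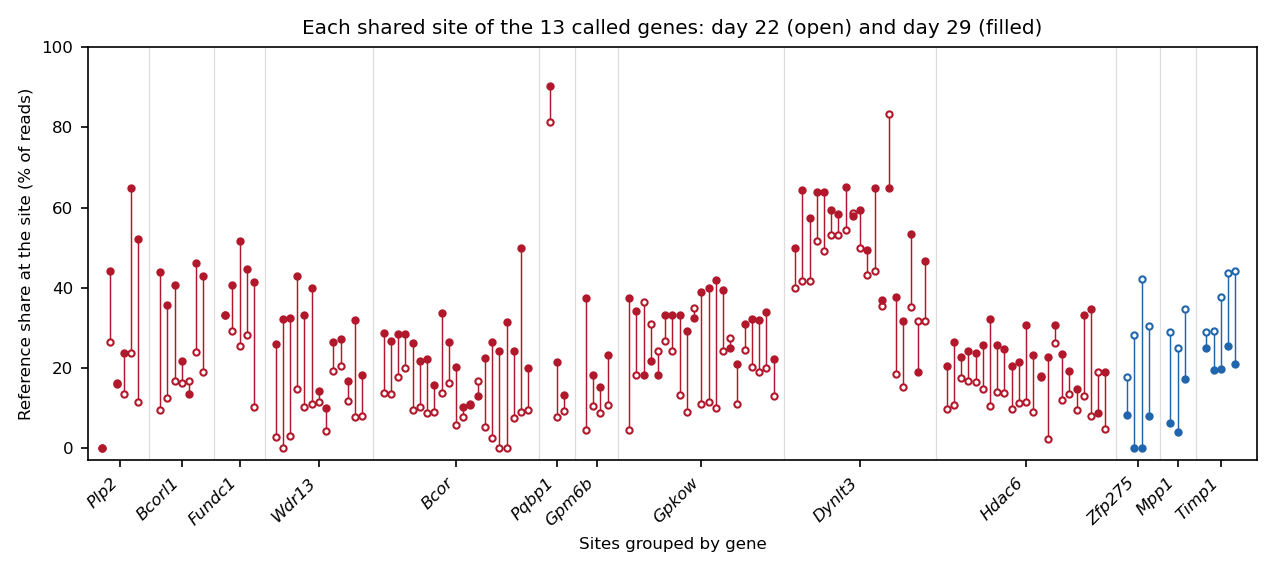
Reference share (y axis, % of reads) at each shared site of the 13 called genes, at day 22 (open circles) and day 29 (filled circles); sites are grouped by gene and ordered along the chromosome within it, and single sites rest on few reads. All 13 sites of Wdr13 and 22 of 23 sites of Hdac6 were higher at day 29, and all sites of Zfp275, Mpp1 and Timp1 were lower.

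Another 3 genes lost reference reads. Timp1 (X:20870166-20874735, plus strand), a secreted inhibitor of matrix metalloproteinases that fibroblasts make in quantity, had 196 of 493 reference reads at day 22, or 39.8% (35.5 to 44.1), and 129 of 582 at day 29, or 22.2% (19.0 to 25.7). It fell by 17.6 points (interval -23 to -12.1, adjusted p = 2.67e-08, Fisher's exact test), at 5 of 5 sites. The tables name Syn1 as well as Timp1 at all of these sites, since Timp1 lies inside an intron of Syn1 on the opposite strand. They were given to Timp1 because it has the exon there, and whether the authors used strand is not given in the sources used here, so reads of the overlapping gene cannot be told apart.

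Mpp1 (X:75109733-75131016, minus strand), a membrane-associated guanylate kinase scaffold, had 31 of 107 reference reads, or 29.0% (21.2 to 38.2), and then 8 of 86, or 9.30% (4.79 to 17.3). It fell by 19.7 points (interval -29.9 to -8.54), at 3 of 3 sites, with an adjusted p of 0.0099 by Fisher's exact test. Zfp275 (X:73342621-73359080, plus strand), a zinc finger protein, had 32 of 109 reference reads, or 29.4% (21.6 to 38.5), and then 4 of 92, or 4.35% (1.70 to 10.7). It fell by 25 points (interval -34.5 to -15, adjusted p = 4.50e-05 by Fisher's exact test), at 4 of 4 sites, of which 2 had 0 reference reads at day 29. These falls rest on few reads. With a coverage minimum of 10 reads Mpp1 had 7 sites, a difference of -8.17 points and an adjusted p of 0.289 by Fisher's exact test. With sites at least 150 bases apart, Mpp1 had an adjusted p of 0.117 and Zfp275 of 0.0826.

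A total of 7 genes lay at or near the limits without a call. On the lower side, Tceal3 (1 site, 35 of 43 and then 23 of 41 reference reads) differed by -25.3 points at an adjusted p of 0.096 by Fisher's exact test. The single site of Cxx1b, with 23 of 33 and then 12 of 27 reference reads, also differed by -25.3 points. Values for 1110012L19Rik (-19.5 points, adjusted p = 0.0663) and its neighbour Ids (-18.3 points, adjusted p = 0.201), which encodes a lysosomal sulfatase, rested on 2 sites each in the exact test. On the higher side, Pou3f4 differed by 22.6, Slc35a2 by 20.8 and the histone demethylase gene Kdm6a by 16.7 points, each at 1 site and with adjusted p from 0.284 to 0.380. Just inside the limit of 10 points were Hdac6 at 10.5 and Dynlt3 at 11.1 points, and the genes closest below it with an adjusted p under 0.05 were Praf2 at 9.51 and Med14 at 9.32 points.

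Reference reads rose in each of the 10 higher genes, while variant reads did not follow 1 pattern. Each library was scaled by its sum over all shared gene sites. Summed over the 10 genes, reference reads went from 1300 to 2171, a log2 change of 0.87 (95% exact interval 0.77 to 0.97), and were up in 10 of 10. Variant reads went from 5466 to 4373, a log2 change of -0.20 (-0.25 to -0.14), and were down in 7 of 10. Total coverage of the 10 genes went from 6766 to 6544 reads, a log2 change of 0.08 (0.03 to 0.13). Since the genes were picked for a higher reference share, a rise of reference relative to variant reads is fixed by the choice, and only the size of each and the coverage are additional.

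Per gene, the log2 change in reference reads ran from 0.60 in Dynlt3 to 1.48 in Wdr13. Coverage was within its counting interval of no change in Bcor (0.01), Bcorl1 (0.01), Wdr13 (-0.01) and Fundc1 (-0.03). It was higher in Plp2 (0.32), Gpm6b (0.31), Gpkow (0.29), Pqbp1 (0.27) and Dynlt3 (0.26), all on the log2 scale, and lower in Hdac6 (-0.17). In the 5 genes with more coverage, variant reads stayed within the interval of no change, at log2 changes of -0.10 to 0.10. In the other 5, the intervals for variant reads lay below 0: the log2 change was -0.44 in Fundc1 (-0.83 to -0.07), -0.37 in Bcorl1 (-0.73 to -0.01), -0.35 in Hdac6, -0.33 in Wdr13 (-0.56 to -0.10) and -0.24 in Bcor.

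The 3 lower genes did not share 1 pattern of reads. Together, reference reads went from 259 to 141, a log2 change of -0.75 (-1.06 to -0.45), and variant reads from 450 to 619, a log2 change of 0.59 (0.41 to 0.77). Timp1 had more coverage at day 29 (log2 change 0.37), with variant reads up by 0.74 (0.52 to 0.95) and reference reads at -0.48 (-0.81 to -0.15). In Mpp1 and Zfp275 coverage changed by -0.19 and -0.12, within counting error. Their reference reads had log2 changes of -1.83 (-3.16 to -0.67) and -2.87 (-4.83 to -1.38), and their variant reads of 0.16 and 0.32, with intervals that include 0.

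**Figure D3:**
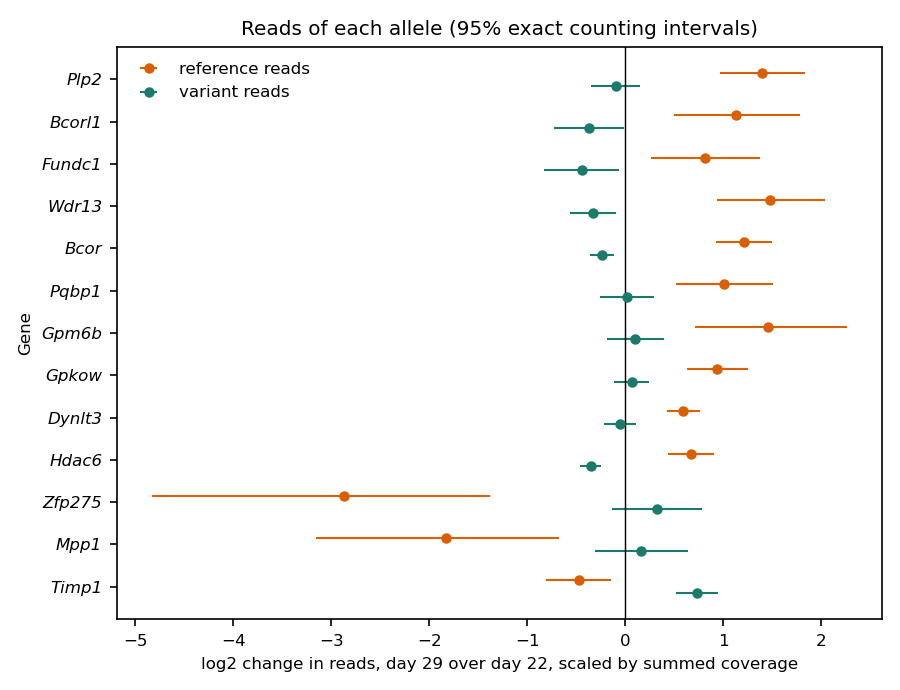
Log2 change in reads from day 22 to day 29 (x axis), scaled by summed coverage, for reference reads and variant reads of the 13 called genes (y axis); bars are 95% exact intervals for counting error. Reference reads of Wdr13 changed by 1.48 and of Zfp275 by -2.87, while variant reads stayed between -0.44 in Fundc1 and 0.74 in Timp1.

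The genes that rose were unevenly placed. Of the 10, 8 lay in the first 30 Mb of the chromosome, among 48 genes tested there, and 2 (Bcorl1 and Gpm6b) lay among the 232 beyond it. Of the 3 that fell, Timp1 lay in the first 30 Mb and Mpp1 and Zfp275 beyond. In the first 30 Mb, 31 genes had a positive and 13 a negative difference, with a median of 2.56 points. Beyond it, 91 were positive and 130 negative, with a median of -0.37 points. Summed over all reads, the reference share of the first 30 Mb went from 22.5% to 27.9%, while that of the rest was 16.4% and 16.2%. Without the first 30 Mb, 2 genes were called higher and 2 lower by at least 10 points. These counts are a description, and genes near each other were not taken as independent.

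The stretch with the gains was narrower than 30 Mb. In the first 20 Mb, a limit chosen after the values were seen, 38 genes were tested. All 8 of the region's risers lay there, 13 genes had an adjusted p under 0.05 upward and 0 downward, and the median difference was 4.70 points. In the first 10 Mb, where Plp2, Gpkow, Pqbp1, Hdac6, Wdr13 and Dynlt3 lie, 9 of 24 genes had an adjusted p under 0.05, all upward, and the median was 5.74 points. Neighbours there did not all move: Ebp was at 18.7% and 18.2%, Pcsk1n at 14.9% and 15.7%, Timm17b at 12.2% and 15.7%, and Porcn at 9.18% and 4.46%, and none of these passed the test. Between 10 and 20 Mb, Bcor and Fundc1 rose among 14 genes. Between 20 and 30 Mb, 10 genes were tested and the median was -0.78 points.

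The most losses by count lay between 70 and 80 Mb, which of all 10 Mb stretches had the most tested genes, 43. There 0 genes were called higher and 2 lower (Zfp275 and Mpp1), against 3.57% and 1.07% of all genes. An adjusted p under 0.05 was reached downward by 5, Irak1 and Naa10 among them, and upward by 0, against 5.36% and 7.86% of all genes. The difference was negative in 24 of the 43, and in 130 of the 232 genes beyond 30 Mb. The median was -1.21 points, and some stretches with fewer genes had lower medians, such as -1.83 between 40 and 50 Mb. Summed over the stretch, the reference share was 26.1% at day 22 and 23.1% at day 29.

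**Figure D4:**
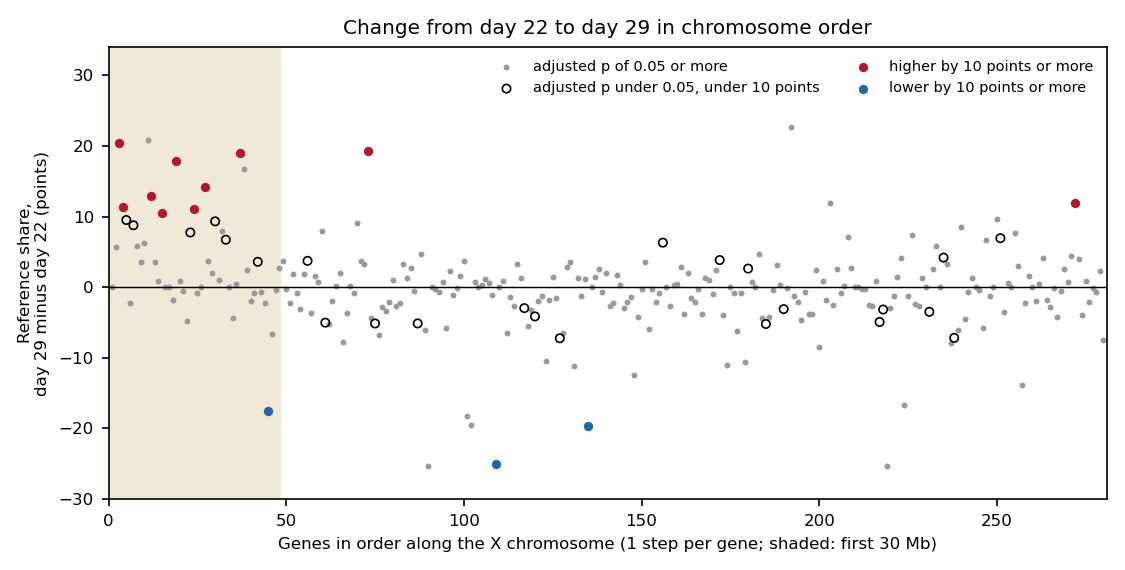
Difference in reference share, day 29 minus day 22 (y axis, percentage points), for the 280 genes in order along the X chromosome (x axis, 1 step per gene); red and blue points are genes called at 10 points or more, open circles have an adjusted p under 0.05 at a smaller size, and shading marks the 48 genes of the first 30 Mb. Of the 10 red points 8 lie in the shaded part, and the blue points are at -17.6 (Timp1), -25 (Zfp275) and -19.7 (Mpp1).

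Below the limit of 10 points, 12 genes were higher at an adjusted p under 0.05; apart from Rlim, which the rule also names for its coverage, they are named here after their values were seen. They included the transcription factor gene Tfe3, which controls lysosomal and metabolic genes, with 390 of 2324 reference reads (16.8%) and then 529 of 2071 (25.5%), and an adjusted p of 1.04e-10. Its neighbour Praf2, of the prenylated Rab acceptor family, went from 12.6% to 22.1%, and the Mediator subunit gene Med14 from 40.9% to 50.2%. Ftsj1, a tRNA methyltransferase gene, went from 7.62% to 15.4%. The escape gene Ddx3x, an RNA helicase, went from 52.5% to 59.2%, with 1466 of 2793 and then 1302 of 2199 reference reads. Summed over its sites, variant reads dropped (log2 change -0.44), but the sites differed. The adjacent untranslated sites at 13292622 and 13292623 gained coverage, from 429 to 454 and from 433 to 459 reads. The second was mostly reference (392 of 433 and then 413 of 459 reads). At every other Ddx3x site, raw coverage and raw reference reads were both lower at day 29. A loss of variant reads alone was therefore not shown. These 5 genes all lie in the first 20 Mb.

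Farther along, the polyamine acetyltransferase gene Sat1 went from 165 of 1537 reference reads (10.7%) to 451 of 2553 (17.7%), a rise of 6.93 points at an adjusted p of 5.07e-08. Its total coverage rose most among the genes with an adjusted p under 0.05, by 0.86 on the log2 scale, with reference reads up by 1.58 and variant reads by 0.74. Msn, which links actin to the membrane, went from 26.8% to 33.1%, and Uba1, the ubiquitin-activating enzyme, from 15.4% to 19.0%. Alg13 and Ogt, which both serve glycosylation with N-acetylglucosamine, were higher by 4.19 and 3.84 points while their coverage fell by 0.50 and 0.59 on the log2 scale. Sept6, a septin gene, was higher by 3.72 points and Rlim, a ubiquitin ligase that promotes Xist expression, by 2.63 points. Without sites at which the reference base made up most of the reads summed over days 22 and 29, Rlim differed by 0.24 points (adjusted p = 0.807), Sept6 by 1.84 (0.188), Alg13 by 3.15 (0.138) and Ddx3x by 3.29 (0.254), and none of the 4 passed the exact test. Rlim also differed by 0.59 points at a coverage minimum of 50 reads (adjusted p = 0.846), by 0.63 with sites 150 bases apart (0.993) and by -0.55 at sites mostly variant in MEF2 (0.489), in the same exact test. Praf2, Sat1, Msn, Alg13, Ogt and Sept6 likewise did not pass with sites 150 bases apart. Summed over these 12 genes, reference reads had a log2 change of 0.19 and variant reads of -0.14. Per gene, scaled reference reads were up in 9 and down in 3, so a higher share did not always mean more reference reads.

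Another 12 genes were lower by less than 10 points at an adjusted p under 0.05, and those named here, apart from Hmgn5, were likewise chosen after their values were seen. Gnl3l, a nucleolar GTPase gene, went from 43 of 411 (10.5%) to 11 of 335 (3.28%). Hprt, a purine salvage enzyme gene, went from 13.1% to 8% at an adjusted p of 5.62e-04, and the chromatin remodeller gene Atrx from 17.6% to 12.4%. Zfp280c, a zinc finger gene, went from 6.20% to 1.06%. Wbp5, now a member of the Tceal family, went from 21.4% to 16.4%, the homeobox gene Rhox5 from 14.1% to 9.08%, and the innate immune kinase gene Irak1 from 14.8% to 10.7%. Differences for Tmem164 (-3.49 points), Bex3 (-3.16), the nucleosome-binding protein gene Hmgn5 (-3.11) and the acetyltransferase gene Naa10 (-2.97) were smaller. Hmgn5 is uncertain as a measure of allele use: its sites ran from 0% to 91.4% at day 22, and its share was already 37.4% in MEF2. Other named genes also hold sites that are mostly reference. At day 22 the sites of Atrx ran from 0% to 87.3% and those of Ogt from 0% to 94.3%, and 1 of Med14 was at 93.8%. The MEF2 shares of Atrx and Ogt were 11.9% and 15.1%. The levels of these genes are likewise uncertain as allele use. The cause was not tested. Summed over the 12, reference reads had a log2 change of -0.10 and variant reads of 0.21. Scaled variant reads were up in 8 of these genes and down in 4. Hmgn5 gave 4184 of the group's 15881 reads at day 22 and 4617 of 16110 at day 29, so it weighs heavily in these sums. Since the genes were picked for a lower reference share, a fall of reference relative to variant reads is fixed by the choice. With sites 150 bases apart, Gnl3l, Atrx, Zfp280c, Rhox5, Irak1, Tmem164, Hmgn5 and Naa10 did not pass, with Hmgn5 at -0.87 points (adjusted p = 0.888 by Fisher's exact test). The sites of Naa10 carry more than 1 gene name and were resolved by exon.

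The deepest genes without a call had narrow intervals, which cover counting error only and not the choice of sites. Rps4x, a ribosomal protein gene, had 260 of 5565 reference reads and then 256 of 5504, a difference of -0.02 points (interval -0.81 to 0.77). Pdha1, a subunit of pyruvate dehydrogenase, differed by 0.51 points (-0.28 to 1.31), from 3% to 3.51%. Sh3bgrl, a small thioredoxin-like protein, was at 12.3% and 12.2%, with an interval of -1.65 to 1.30 points. Its value depended on the sites used, at 5.89 points with sites 150 bases apart (adjusted p = 0.0214) and -1.41 at sites mostly variant in MEF2 (adjusted p = 0.044, both by Fisher's exact test). Gm14681, a processed pseudogene whose reads may belong to a near-identical copy and which is therefore uncertain, had 31 of 12542 and then 13 of 10879 reference reads. Rlim and Hmgn5, described above, were the remaining deeply read genes, and their differences passed the test over all sites but not the size limit.

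The gene lists are described beside the background of 3.57% of all genes higher and 1.07% lower by at least 10 points. Of 28 chromatin and transcription genes tested, 3 rose by at least 10 points (Bcor, Bcorl1 and Hdac6) and 1 fell (Zfp275), although Hdac6 is mainly a cytoplasmic deacetylase of tubulin. At any size, where the background is 7.86% upward and 5.36% downward, 6 of the 28 had an adjusted p under 0.05 upward and 2 downward. Of the upward genes, Bcor, Hdac6, Med14 and Tfe3 lie in the first 20 Mb, where 13 of all 38 genes passed upward. List and position thus overlap. Of the list, 17 genes had a negative difference, and its median was -0.70 points. Of 9 actin cytoskeleton and adhesion genes, 3 had an adjusted p under 0.05 upward (Dynlt3, Msn and Sept6) and 0 downward, with a median of 2.75 points; Dynlt3 is a dynein light chain, which works on microtubules rather than actin. Of 11 escape genes 1 passed, Ddx3x, and the median was 2.57 points, with median shares of 44.2% and 49.1%. The median over all genes was -0.07 points.

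Against the same background of 7.86% and 5.36% at any size, of 34 housekeeping genes 0 were called at 10 points, 1 had an adjusted p under 0.05 upward (Uba1) and 2 downward (Hprt and Naa10), and the median difference was -0.17 points. Of 16 genes of the Bex, Tceal, Armcx and Maged families, 2 passed downward (Bex3 and Wbp5) and 0 upward. Among 8 lysosome and proton pump genes Tfe3 passed upward and Tmem164 downward. Of 10 ubiquitin pathway genes, Rlim and Uba1 passed upward. In the X-inactivation centre 2 of 10 genes were tested, and Rlim passed upward. The 19 fibroblast-expressed genes had 2 upward (Plp2 and Msn) and 1 downward (Timp1), with a median difference of 0.77 points. Their summed coverage was 23163 reads at day 22 and 21634 at day 29, and the median log2 change in coverage was 0.10. Summed coverage of the 2 pluripotency and germline genes was 2870 and 2831 reads, but they differed. Coverage of Tfe3 went from 2324 to 2071 reads and that of Rhox5 from 546 to 760, scaled log2 changes of -0.04 and 0.60. Of that list, 15 of 17 genes had no shared site, and the part of a change in cell mixture in these results was not tested.

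The number of genes read from both alleles was also counted on each day. A gene was called biallelic where the median over its sites of the smaller allele's share was at least 10%. By this rule 39 genes were biallelic at day 22 alone, 22 at day 29 alone, 72 on both days and 147 on neither, which is 39.6% of genes at day 22 and 33.6% at day 29. In the first 30 Mb 5 genes were biallelic at each day alone, and the share was 62.5% on both days. Beyond the first 30 Mb, 34 genes were biallelic at day 22 alone and 17 at day 29 alone. Genes of 1 library are not independent of each other, so these counts are a description with no test. The count depends on the limit: at a smaller-allele share of at least 20%, 11 genes were biallelic at day 22 alone and 18 at day 29 alone, the opposite order. With a coverage minimum of 10 reads the counts were 38 and 31.

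Set beside the other libraries of the course, the 13 genes took different paths. Adjacent comparisons share a library, so the values are given side by side. From day 18 to day 22, 31 of 286 genes were higher by at least 10 points (10.8%) and 1 lower (0.35%). From day 29 to day 36, 6 of 290 were higher (2.07%) and 28 lower (9.66%). From day 22 to day 36, 18 of 295 were higher (6.1%) and 42 lower (14.2%). In MEF2, where 11 of the 13 genes had a site, the reference share at those sites was at most 2.78%. That library lists few of the sites for some genes, with 1 of 6 in Plp2, 3 of 21 in Bcor, 3 of 21 in Gpkow and 2 of 3 in Pqbp1. Over the 21 sites of Dynlt3 that it shares with day 22 alone, the share in MEF2 was 8.04%. The day 18 library lists 3 of 6 sites in Plp2 and 2 of 5 in Fundc1. It lists 3 of 13 in Wdr13 (1 of 69 reads) and 12 of 21 in Gpkow. The day 18 shares of these genes below thus rest on fewer sites than the later ones. At the sites shared with day 22, the step from day 18 passed the exact test in Gpkow (9.71 points). It did not pass in Plp2 (3.18 points), Fundc1 (11.9) or Wdr13 (6.55).

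Plp2, Bcor, Bcorl1 and Gpm6b went on rising. Plp2 was at 17.3%, 18.4%, 38.8% and 68.9% at days 18, 22, 29 and 36, so that the reference allele came to give the larger part of its reads. Its rise from day 29 to day 36 was 27.9 points (adjusted p = 1.59e-16 by Fisher's exact test). Bcor was at 4.75%, 10.9%, 25.1% and 37.3%, and gained 12.6 points from day 29 to day 36 (adjusted p = 1.58e-12, Fisher's exact test). Bcorl1 was at 24.1%, 16.5%, 35.8% and 44.8%. Its share was lowest at day 22, although the step from day 18 (-6.78 points at 6 sites) did not pass the exact test. A low value in the day 22 library raises the difference to day 29. Gpm6b was at 5.68%, 9.68%, 21.5% and 32.0%. Their last steps were 11.9 and 10.5 points (adjusted p = 0.00396 and 0.00779 by Fisher's exact test). The steps from day 29 to day 36 use all sites shared by those days, so they can differ from the listed shares. Bcorl1, for example, went from 31.1% to 43.1% over 11 such sites. Plp2, Bcor, Bcorl1 and Gpm6b are 4 of the 6 genes called higher by at least 10 points in that week.

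The others did not pass the test upward after day 29. Dynlt3 was at 22.2%, 43.1%, 54.2% and 52.1% and Fundc1 at 7.94%, 23.8%, 42.8% and 39.8%. Wdr13 was at 1.45%, 9.88%, 27.7% and 25.1%, Gpkow at 11.0%, 19.9%, 31.2% and 35.1%, and Hdac6 at 5.56%, 13.4%, 23.9% and 27.1%. Pqbp1 alone of the 10 fell again, by 10.01 points from day 29 to day 36 (adjusted p = 0.0163 by Fisher's exact test). At 18.4%, 19.6%, 32.5% and 22.5%, its day 36 share did not differ from day 22 by the exact test (2.89 points, adjusted p = 0.565).

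The 3 genes that fell had their highest share at day 22. Timp1 was at 16.3%, 39.8%, 22.2% and 21.5%, so its day 22 library stood above the libraries on both sides of it. Mpp1 was at 5.94%, 29.0%, 9.30% and 0%, the last being 0 of 106 reads at 2 of its 3 sites. Zfp275 was at 0%, 29.4%, 4.35% and 4.17%, with 1 site at days 18 and 36. From day 18 to day 22 these genes had risen by 23.5, 23 and 30.4 points (Timp1, Mpp1 and Zfp275, each with an adjusted p under 0.05). Over all sites shared by days 22 and 36, they stood 18.3, 23.5 and 19.0 points lower at day 36. At those sites Mpp1 was at 24.3% and then 0.787%, and Zfp275, with 2 sites, at 20.8% and then 1.79%. A high value in the day 22 library raises both differences, the rise before and the fall after it.

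Some of the smaller losses went further. Hprt was at 7.81%, 13.1%, 8% and 0.923% at days 18, 22, 29 and 36, and Rhox5 at 4.14%, 14.1%, 9.08% and 0.686%. Both were lower at day 36 than at day 29, with adjusted p of 8.19e-19 and 1.36e-17 by Fisher's exact test. Wbp5, Bex3, Irak1 and Gnl3l were also lower at day 36 than at day 29 (adjusted p = 2.31e-32, 1.65e-20, 4.94e-09 and 0.0119 by Fisher's exact test). Atrx, Hmgn5, Zfp280c, Tmem164 and Naa10 did not pass that test, with adjusted p from 0.0789 in Naa10 to 1 in Atrx and Hmgn5. Msn, which was higher at day 29, showed the sharpest later loss of the genes followed here, from 33.1% to 6.67% at the sites used above (a difference of -24.9 points over all sites shared by days 29 and 36, adjusted p = 2.16e-89, Fisher's exact test). Tfe3 and Sat1 instead reached 35.0% and 23.9% at day 36. The week from day 22 to day 29 thus held gains that lasted to day 36, gains that did not, and losses of which some went on.

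**Figure D5:**
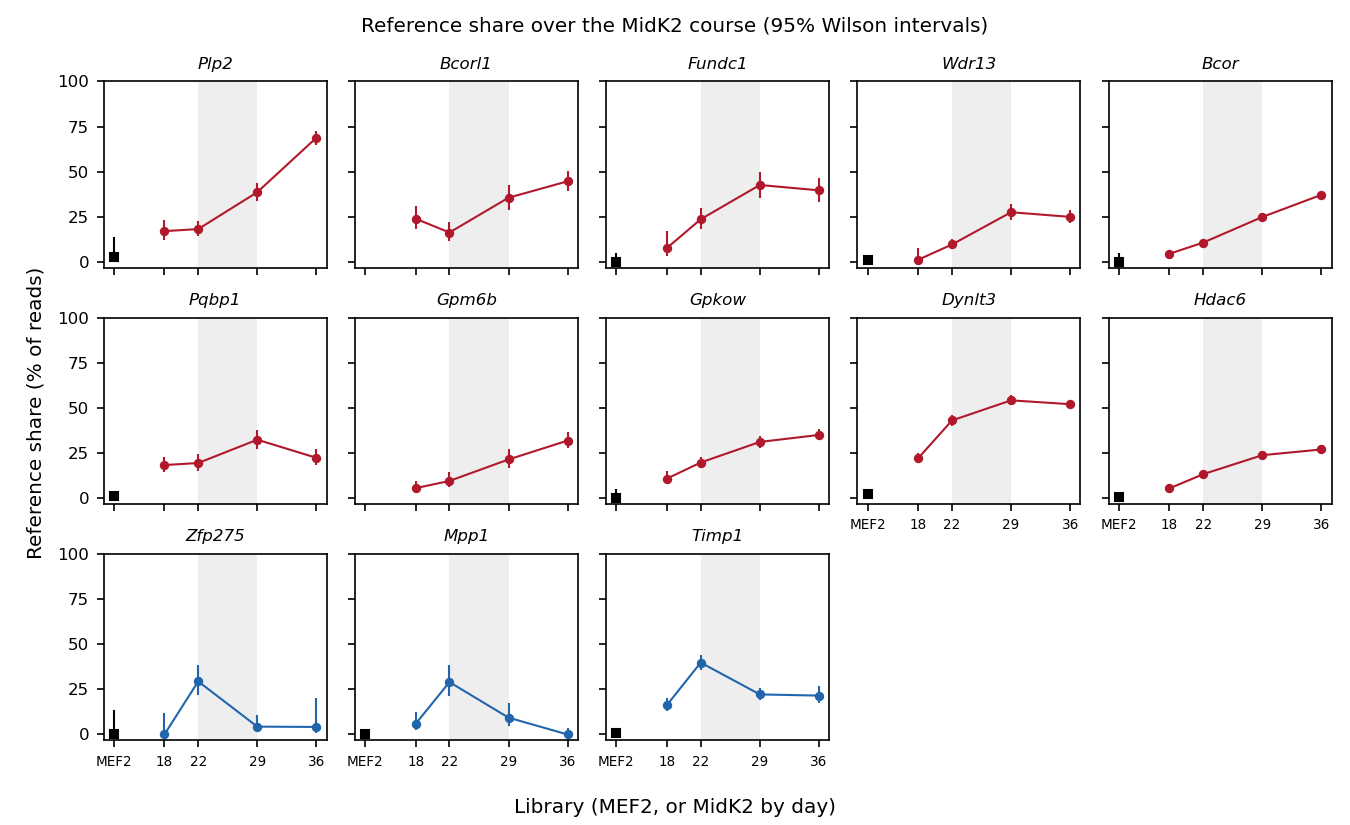
Reference share (y axis, % of reads) of the 13 called genes in MEF2 (square) and in MidK2 at days 18, 22, 29 and 36 (circles, x axis), at the sites shared by days 22 and 29 that each library also lists; bars are 95% Wilson intervals and grey marks days 22 to 29. Plp2 goes on to 68.9% at day 36, and Timp1, Mpp1 and Zfp275 have their highest value at day 22.

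Xist itself could not be compared, since no site of it was shared by the 2 days at 20 reads. At the 2 sites of day 22 and 3 of day 29 with such coverage, the reference allele took 93.8% of 65 reads and 93.9% of 98 reads. A share above 95% is not listed in these tables, so a loss of the variant allele from these sites would not be seen.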

How the data were processed

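RNA of each library was selected for poly(A), made into directional libraries and read in pairs, per the labels' protocols. The authors called variants against mm10 with a basic variant caller, per the series description and the submitters' processing notes; for aligner, filters and settings the sources used here give nothing. Each X-linked variant has, per the file headers, a count of reads with the allele, a count of covering reads (raw, not normalised) and a percent of reads with the allele. In the tables of MEF2 and MidK2 the lowest deposited percent was 5 and the lowest coverage 10 reads, so reference shares above 95% and positions with reference reads alone are not seen. MidK2 at day 22 listed 7460 variants, 3525 of them single-base sites with at least 20 reads, and at day 29 it listed 6537 and 3104. Over the 12 libraries these sites numbered 1507 to 3871 and held 138579 to 279031 reads.

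Of 2507 shared sites, 2238 named 1 gene, 77 named several and went to the single one with an exon in GENCODE M21, and 45 with several names and 147 without one were left out. A spreadsheet date written for Sept6 at 49 sites in other libraries was read as that gene. Of the 280 genes 276 matched GENCODE M21. Fisher's exact test used scipy 1.17.1, adjustment statsmodels 0.14.6; intervals are Wilson for shares, Newcombe for differences and exact for log2 changes, all at 95%, for counting error only. The test was checked on simulated data, in which reads were drawn independently at each site from 1 share per gene. Such data hold no reads that span several sites and no spread between sites, so the check does not cover these. A planned McNemar test of biallelic genes takes linked genes as independent, so its p is not given. The text names genes called at 10 or 20 points, Xist and the 6 best-covered genes without a call; others were named after their values were seen. Members, lists and tests were chosen with earlier results of these data known. Some single genes are not reported here.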

Additional observations from a re-analysis of the deposited data

Results flagged for a closer look

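Sites without a gene name were left out of the comparisons, and 147 of them were shared by days 22 and 29 at 20 reads. At the 51 of these also listed in MEF2, the reference share was 11.8% at day 22 (95% Wilson interval 10.7 to 12.9, 410 of 3482 reads) and 12.03% at day 29 (10.9 to 13.2, 377 of 3135 reads), above 5.6% in MEF2 (4.94 to 6.34, 233 of 4160 reads). Over all 147 sites it was 13.4% at day 22 and 15.3% at day 29.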

How the results depend on the processing

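Every alternative keeps the other choices, and those with a start-position minimum, those without sites mostly reference, and the other coverage minimums for the course, were chosen after seeing the data. At 20 points, 1 gene was higher (Plp2) and 1 lower (Zfp275), and other genes often took their place. At a coverage minimum of 10 reads there were 2 higher, Cxx1a and Gemin8, and 1 lower, Tbc1d8b, with Plp2 at 19.6 and Zfp275 at -18.8 points. With sites 150 bases apart there were 2 higher, Bcorl1 and Fundc1, and 0 lower, with Plp2 at 17.9 points. With the median of site differences there were 2 higher, Bcorl1 and Wdr13, and 2 lower, Mpp1 and Zfp275, with Plp2 at 14 points. Sites mostly variant in MEF2 gave Fundc1 and 0 lower, with Plp2 at 17.6 points. There were 0 higher without the first 30 Mb and without sites mostly reference over both days together, where Plp2 was at 16.7 points; this setting by its construction removes sites with a high share at day 29. A coverage minimum of 50 reads (Plp2 at 12.5 points), the best-covered site alone and a limit of 30 points each gave 0 and 0; a limit of 10 points gave 10 and 3. Genes called higher at 10 points, 10 in the report, were 4 at 50 reads, 0 at the best-covered site, 6 at sites mostly variant in MEF2 and 2 without the first 30 Mb. The 3 lower were 5 at 10 reads, 1 at 50 reads, 0 at the best-covered site and 1 at sites 150 bases apart. In the first 30 Mb, 8 higher became 4 at 50 reads and 0 at the best-covered site, and 1 lower became 0 at the best-covered site and at sites naming 1 gene, which leaves out Timp1. Biallelic genes, 39 at day 22 alone and 22 at day 29 alone, were 17 and 14 at 50 reads, and 11 and 18 at a smaller-allele share of 20%. At sites mostly variant in MEF2, 12 were biallelic at day 29 alone. At the best-covered site alone the direction reversed in Bcorl1 (-3.03 points), Rlim (-3.93), Ftsj1 (-7.77), Ddx3x (-0.55), Msn (-2.08), Alg13 (-5.94), Irak1 (1.12) and Gnl3l (2.08). Rlim also reversed at sites mostly variant in MEF2 (-0.55), Irak1 with the median of site differences (0.46) and Sh3bgrl with sites 150 bases apart (5.89). Bcor, Bcorl1, Dynlt3, Fundc1, Hdac6, Plp2 and Timp1 kept the call at 10 points under each alternative that could be run except the best-covered site. Fewer genes or sites were tested under most of these settings; beyond that, the cause was not tested. Genes with few shared reads are called only at large differences, which is the limit that depth sets here.

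No paired analysis was possible because each day has 1 library, and for the same reason no library was left out in turn.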

Other observations

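Many sites were listed on 1 day alone. Of 3525 single-base sites with at least 20 reads at day 22, 552 were listed with fewer reads at day 29 and 466 were not listed there; the median reference share of the latter was 91.4%, at a median coverage of 28 reads. Of 3104 such sites at day 29, 237 had fewer reads at day 22 and 360 were not listed, with a median reference share of 92.6%.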
